A study of Mus musculus with 5 samples.

Results

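Adventitial fibroblasts were taken from a single-cell RNA-sequencing table of the mouse atherosclerotic aortic arch as cells in which at least 2 of Pi16, Clec3b, Dpt and Dpep1 had a unique molecular identifier (UMI), Dcn was above 1 on the natural-log scale (above 1.72 UMIs per 10000 UMIs of the cell, a unit called CP10K), Ptprc and Cdh5 were at 0, and fewer than 2 of the cartilage genes Col2a1, Acan and Chad had a UMI. The rule picked 294 of 18260 cells. The members were thus chosen by the measured levels of these 10 genes, and those levels, where given, are a description with no test.

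Both groups were Apoe-/- mice on a C57BL/6 background, fed normal chow for 28 weeks. One group was Oasl1+/+ (called Apoe-/-, 2 libraries, 38 and 38 adventitial fibroblasts), and the other carried a whole-body Oasl1 deletion that removes the promoter and exon 2 (labelled Oasl1-/-Apoe-/-, 3 libraries, 62, 78 and 78 adventitial fibroblasts). Cells came from the aortic root to the curvature after the perivascular fat had been removed, and live DAPI-sorted cells of pooled mice (n = 6) entered 3′ libraries. The sources do not say whether 1 pool served 1 library or 1 group, so p-values measure the spread between libraries, which may be technical, and the sex of these mice was not given in the sources used here. The comparison asks what the loss of Oasl1, an interferon-inducible protein of the oligoadenylate synthetase-like family, goes along with in the cells of the diseased vessel wall.

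The adventitia is the outer coat of an artery, and its fibroblasts deposit the collagen and microfibril meshwork around the smooth muscle layers. Pi16-positive fibroblasts form a population found in the adventitia of many tissues, are often marked by Dpp4, and are known as a reserve for more specialised fibroblasts. Adventitial fibroblasts are also known as sentinel cells that release chemokines, complement components and interleukin-33 when the vessel is inflamed.

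The Oasl1 transcript did not run as the labels would have it. Over all cells it stood at 0.0145 and 0.00854 CP10K in the Apoe-/- libraries and at 0.169, 0.163 and 0.198 CP10K in the libraries labelled Oasl1-/-Apoe-/-. In adventitial fibroblasts it had 3 UMIs, all in Oasl1-/-Apoe-/- replicate 3. These levels go against the labels, where the 3′ tags lie relative to the deleted stretch was not examined here, and the group is called by its label throughout (the labelled knockouts), so each direction given here is one between libraries as labelled. Apoe, deleted in both groups, was low in adventitial fibroblasts of all 5 libraries, between 0.0136 and 0.230 CP10K, and the groups overlapped. The libraries held 16959976 to 19813039 UMIs in all, and the adventitial fibroblasts held 143346 and 152606 in Apoe-/- and 252816, 337874 and 348511 in the labelled knockouts, with medians of 3297 to 3836.5 per cell. Of 18094 barcodes, 165 occurred in more than 1 library. Among them were the barcodes of 8 adventitial fibroblasts, none of which passed the rule in both libraries. Across genes, the 3 labelled knockouts correlated with each other at 0.907 to 0.922 and the 2 Apoe-/- libraries at 0.840, and the smaller number of cells in the latter stood beside this. Libraries of different groups correlated at 0.840 to 0.862, so the 2 Apoe-/- libraries were no closer to each other than to the labelled knockouts.

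All 4 marker genes had a UMI in 106 of the 294 cells (36.1%), and the next most frequent sets were Pi16, Clec3b and Dpt (39 cells), Clec3b and Dpt (34 cells) and Pi16 and Dpt (32 cells). Clec3b (tetranectin) stood at 14.7 and 20.5 CP10K in Apoe-/- and at 15.7, 18.4 and 13.9 CP10K in the labelled knockouts, and Dpt (dermatopontin, a collagen-binding matrix protein) at 13.1 and 13.0 against 13.7, 12.2 and 14.0 CP10K. The groups overlapped for both. Dpep1 stood at 3.78 and 6.98 CP10K in Apoe-/- and at 5.71, 5.49 and 5.76 CP10K in the labelled knockouts, also with overlap. Dcn stood at 169 and 156 against 179, 180 and 170 CP10K. Pi16, a secreted peptidase-inhibitor family protein, differed more, with 34.0 and 34.5 CP10K in Apoe-/- and 12.3, 18.5 and 15 CP10K in the labelled knockouts, although it was part of the choice of cells. Cells just inside the rule, with exactly 2 of the 4 genes (105 cells), had a mean of 6.56 CP10K of Pi16, 10.3 of Gpx3 and 17.6 of Acta2, and cells just outside it, with exactly 1 (335 cells), had 1.69, 2.78 and 28.5 CP10K.

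The label was checked against genes the rule had not named, in a description against the 1695 other Dcn-high cells (the same Dcn, Ptprc, Cdh5 and cartilage limits with at most 1 of the 4 markers). Gpx3, the secreted glutathione peroxidase, led the 8468 genes described, with a mean of 23.1 CP10K in adventitial fibroblasts against 1.17 in the other cells and a log2 difference of 4.26. Gpx3 is the fifth marker named for this population with earlier results of these data known, so its place is no independent check. After Gpx3, Cygb (cytoglobin) followed with 10.4 against 0.508 CP10K. The next were Ms4a4d, Ccl11 (eotaxin-1), Apod (apolipoprotein D), Gfpt2 (of hexosamine synthesis), Entpd2 (an ecto-nucleotidase), Abca8a (a lipid transporter), Serpinf1 (pigment epithelium-derived factor), Svep1 (a matrix protein), Hsd11b1 (which regenerates active glucocorticoid), Il33, Scara5 (a ferritin receptor), Inmt and Serping1 (the C1 inhibitor), with log2 differences between 3.84 and 3.19. These are secreted and stromal genes, and the contractile genes Myl9 (4.55 against 26.0 CP10K) and Myh11 (1.34 against 8.06 CP10K) were among those lower in adventitial fibroblasts. Of the fibroblast identity list, Pdgfra, Serpinf1, Fbln1, Gsn, Mfap4, Mmp2 and Pcolce were higher in adventitial fibroblasts in both groups. Lum was lower in both (means 18.5 against 28.0 CP10K in Apoe-/- and 22.9 against 34.0 in the labelled knockouts). Col1a1 (18.4 against 30.2) and Col1a2 (21.5 against 24.1) were lower in the labelled knockouts only. Col3a1 differed little (22.5 against 20.1 and 33.3 against 31.9).

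**Figure D1:**
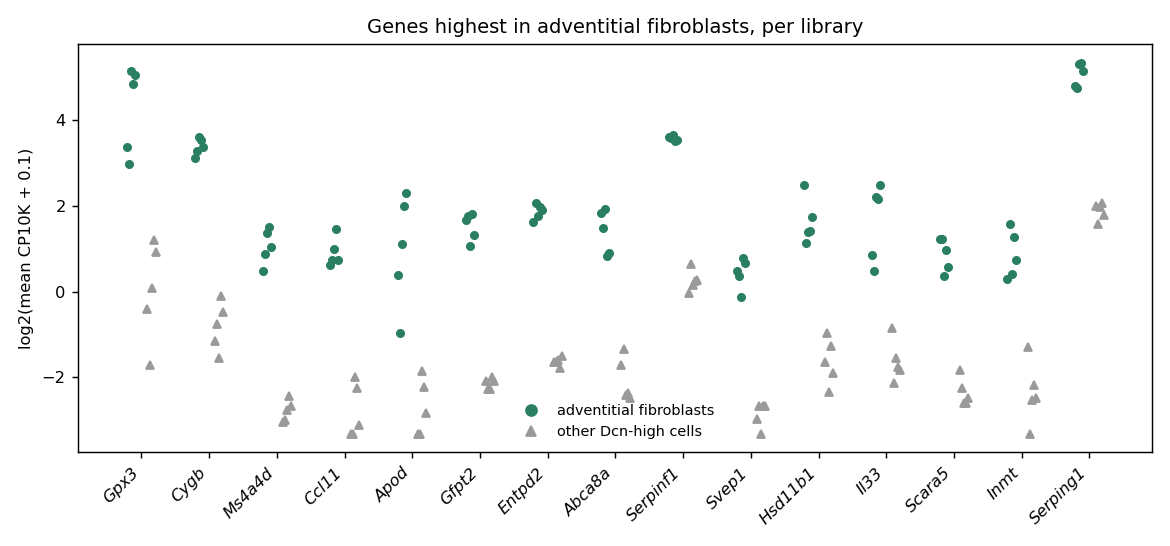
Mean level per library, as log2(CP10K + 0.1), of the 15 genes that stood highest in adventitial fibroblasts (green circles, 5 libraries) against other Dcn-high cells (grey triangles, the same 5 libraries). Gpx3 leads with 23.1 against 1.17 CP10K, and for each of the 15 genes all circles lie above all triangles.

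Transcripts of other cell types were present. Macrophage genes summed to 1.64 and 1.6 CP10K in the adventitial fibroblasts of the Apoe-/- libraries and to 2.94, 7.90 and 4.99 CP10K in the labelled knockouts, where the whole libraries held 61.5 and 51.8 against 110, 106 and 111 CP10K. Smooth muscle genes summed to 46.6 and 34.6 against 20.8, 17.5 and 20.3 CP10K, and the whole libraries again ran the same way (409 and 393 against 258, 253 and 251 CP10K). Erythroid genes summed to 2.41 and 2.26 against 0.583, 0.434 and 0.757 CP10K. Of the mesothelial list 3 of 9 genes, led by Krt19, had a UMI in the adventitial fibroblasts, and Msln, Upk3b, Upk1b, Lrrn4, Krt8 and Krt18 had none. Of the endothelial list 3 of 7 had one, led by Pecam1, while Vwf, Tie1 and Cldn5 had none, as did Cdh5, which the rule sets to 0. Cd4 led the 2 of 7 T and NK cell genes with a UMI (Cd3e, Cd3d, Cd3g, Nkg7 and Cd8a had none), Ighm the 3 of 5 B cell genes (Cd79a and Ms4a1 had none), and of the adipocyte genes Car3 had one and Adipoq, Plin1 and Cidec none. The summed levels of these 5 lists reached at most 0.936 CP10K in any library. The rule limits the cartilage genes Col2a1, Acan and Chad, so they were left out of the chondrocyte sum. The other 6 chondrocyte genes summed to 4.63 and 3.09 CP10K in Apoe-/- and to 5.77, 2.79 and 4.03 CP10K in the labelled knockouts. The whole libraries held 0.464 and 0.490 against 1.20, 1.38 and 1.45 CP10K, so the adventitial fibroblasts lay above the whole library in each. Schwann cell genes summed to 3.25 to 4.84 CP10K, against 4.68 to 5.52 in the whole libraries, and pericyte genes to 3.93 to 5.27 CP10K, against 9.45 to 19.3. The groups overlapped in these 3 lists. The median mitochondrial share of a cell's UMIs was 3.21% and 3.14% in Apoe-/- and 2.30%, 2.20% and 2.41% in the labelled knockouts.

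Adventitial fibroblasts made up a larger share of the recovered cells in the labelled knockouts. They were 0.932% (95% Wilson interval 0.680 to 1.28) and 0.876% (0.639 to 1.20) of all cells in the Apoe-/- libraries and 1.82% (1.42 to 2.33), 2.43% (1.95 to 3.02) and 2.42% (1.94 to 3.01) in the labelled knockouts, intervals that cover counting error only. The means were 0.904% ± 0.0395 (SD, n = 2) and 2.22% ± 0.347 (SD, n = 3), a ratio of 2.46, with no overlap between libraries of different groups. The exact two-sided permutation test gave p = 0.1, the smallest that 2 against 3 libraries allow. With smooth muscle-like cells taken out of both the adventitial fibroblasts and the denominator the difference was 1.82 percentage points (exact permutation p = 0.2). Of Dcn-high cells alone, adventitial fibroblasts were 12.4% and 12.4% in Apoe-/- and 13.7%, 17.0% and 16.7% in the labelled knockouts (difference 3.43 percentage points, exact permutation p = 0.2), and after every cell had been thinned to 1000 UMIs the groups overlapped (9.60% and 8.78% against 9.25%, 12.2% and 9.62%, exact permutation p = 0.5). Dcn-high cells as a whole were 7.53% and 7.05% of all cells in Apoe-/- and 13.2%, 14.3% and 14.5% in the labelled knockouts (exact permutation p = 0.1).

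**Figure D2:**
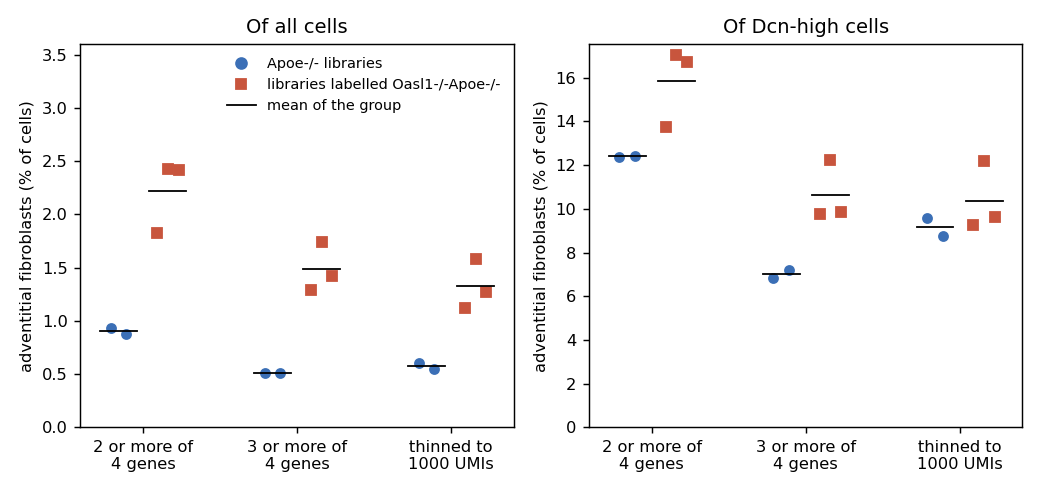
Share of adventitial fibroblasts in percent of all cells (left) and of Dcn-high cells (right), one point per library with the group mean as a bar, under the rule, under at least 3 of the 4 genes and after thinning each cell to 1000 UMIs. Of all cells the groups stay apart in each of these settings, and of Dcn-high cells they overlap after thinning.

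Within adventitial fibroblasts, 7641 genes with a mean of at least 0.1 CP10K were compared between the groups with limma on log2(mean CP10K per library + 0.1), the library being the replicate. After Benjamini-Hochberg adjustment 258 genes passed 0.05, which is 3.38% of those tested, and none passed once each cell was thinned to 1000 UMIs. Of these, 177 (2.32%) were higher and 81 (1.06%) lower in the labelled knockouts, and 253 of them showed no overlap between groups, against 2220 genes (29.1%) without overlap among all genes tested. The median log2 difference over all genes tested was 0.01, and 3894 of them were positive. The split turned with limma-voom on summed UMIs, which called 52 genes higher and 62 lower. Fold changes are on the log2(CP10K + 0.1) scale, which understates the change of low genes, and limma borrowed much of each gene's spread from genes of like level (52.7 prior against 3 residual degrees of freedom).

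Chemokines, complement components, interferon-response genes, class I antigen presentation and chaperones rose in part, and part of the myofibroblast (median log2 difference −0.82), mitochondrial genome (−0.56) and Pi16 and Dpp4 stem-like (−0.45) genes fell. Among the function lists, the 4 with the highest medians apart from class II presentation were chemokines and cytokines (median log2 difference 1.48), class I presentation (1.26), interferon gamma and GTPases (1.14) and complement and acute phase (1.03), while the macrophage marker list had a median of 1.40 with 4 of 8 measured members higher. Of the called genes, 112 belonged to 1 or more of the function lists and 146 to none. Some lists were also higher outside these cells. Over all cells, mean sums went from 12.9 in Apoe-/- to 32.5 CP10K (chemokines and cytokines), 38.1 to 92.1 (class I) and 23.2 to 54.6 (type I interferon). In other Dcn-high cells they went from 19.4 to 34.8, 37.7 to 85.4 and 36.0 to 65.8 CP10K. In adventitial fibroblasts they went from 28.1 to 89.2, 40.4 to 122 and 54.6 to 102 CP10K. None of these overlapped between groups.

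**Figure D3:**
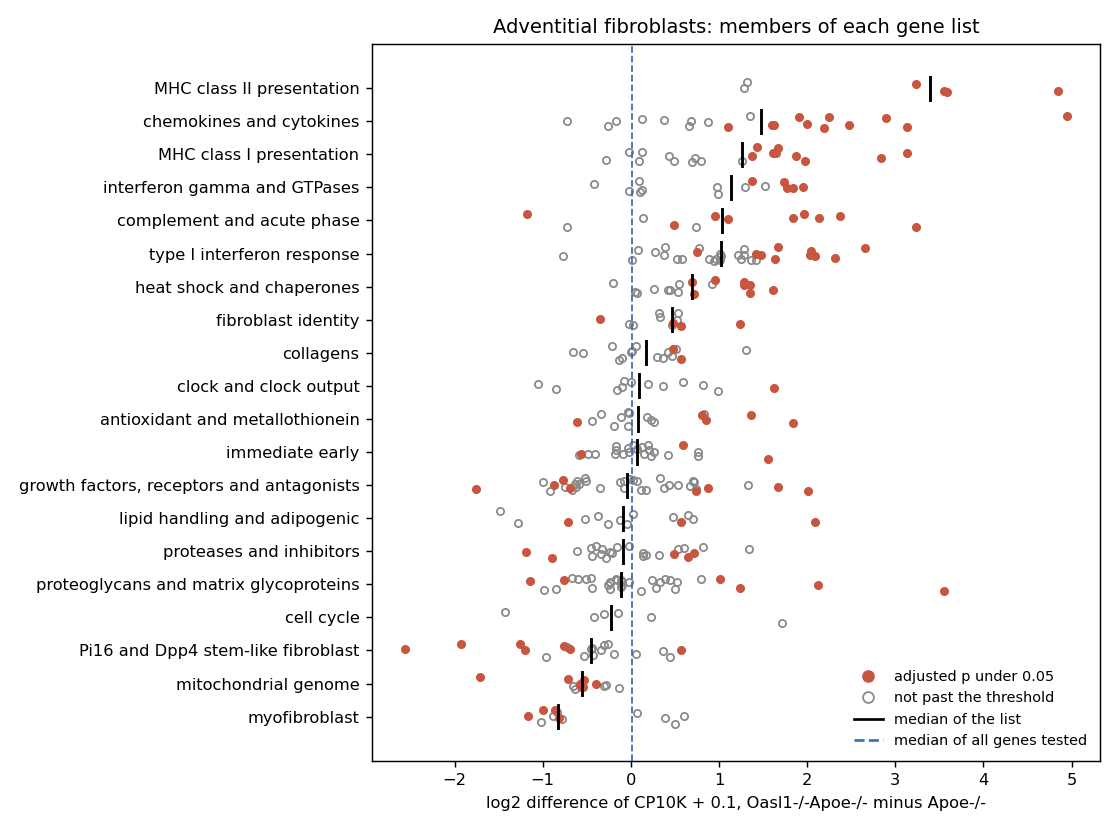
Log2 difference between the groups in adventitial fibroblasts for each measured member of 20 gene lists, with members past an adjusted p of 0.05 filled, the list median as a bar and the median of all genes tested (0.01) as a dashed line. Chemokines, antigen presentation, complement, interferon and chaperone lists lie to the right of the line, and the stem-like, mitochondrial and myofibroblast lists to its left.

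Chemokines and cytokines rose in 11 of 20 measured members, and none fell. Cxcl14, a chemokine of resting epithelia and stroma, had the largest change of all genes. It was at 0.0983 and 0 CP10K in the Apoe-/- libraries and at 3.73, 7.87 and 2.61 CP10K in the labelled knockouts, without overlap (log2 difference 4.95, SE 0.35, limma adjusted p = 2.39e-16). The transcript sat in few cells, 28 of 218 labelled-knockout cells (12.8%, or 11.2% after thinning to 1000 UMIs) against 1 of 76 in Apoe-/-. It was also found in 0.424% of the labelled knockouts' smooth muscle-like cells. Ccl7, a monocyte chemoattractant, was at 0.896 and 2.91 CP10K in Apoe-/- and at 12.2, 20.6 and 13.7 CP10K in the labelled knockouts (log2 difference 3.14, SE 0.24, limma adjusted p = 2.51e-15). Its neighbours in function rose with it. Ccl2, the archetypal monocyte chemokine, went from 0.947 and 2.41 CP10K to 4.86, 14.3 and 5.57 CP10K (log2 difference 2.19), and Ccl8 from 0 and 0.0217 CP10K to 0.485, 0.539 and 0.519 CP10K (2.48). Cxcl10, an interferon-induced ligand for T cells, was at 0 and 0.186 CP10K against 1.44, 1.79 and 0.586 CP10K (log2 difference 2.90).

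Chemokines for neutrophils and lymphocytes were part of the rise. Cxcl1 stood at 5.69 and 9.42 CP10K in Apoe-/- and at 20.3, 25.5 and 21.9 CP10K in the labelled knockouts (log2 difference 1.61, SE 0.16, limma adjusted p = 7.91e-11), and Cxcl2 at 2.41 and 0.971 against 4.71, 8.79 and 6.41 CP10K (log2 difference 2.0), with 62.7% of the Apoe-/- level of Cxcl2 from 1 cell. Ccl19, which draws dendritic cells and naive T cells through CCR7, was at 0.842 and 0.531 CP10K against 2.92, 2.97 and 2.52 CP10K, without overlap, and was found in 13 of 76 and 101 of 218 cells (log2 difference 1.91, SE 0.28). Cxcl13, a B-cell chemokine, had no UMI in the adventitial fibroblasts of both Apoe-/- libraries and of Oasl1-/-Apoe-/- replicate 1, so the groups overlapped, and it rested on 7 cells. Cxcl12, the ligand of CXCR4, rose from 4.92 and 6.44 CP10K to 15, 9.13 and 13.3 CP10K (log2 difference 1.10). Il33, an alarmin stored in stromal nuclei, was at 1.71 and 1.30 CP10K against 4.53, 4.40 and 5.54 CP10K, without overlap (log2 difference 1.62, SE 0.23, limma adjusted p = 7.6e-07). With any 1 library left out, 10 or 11 members of this list rose. With limma-voom 6 did.

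Complement and acute phase genes rose in 8 of 12 measured members and fell in 1. C4b, a complement protein shared by the classical and lectin pathways, was at 1.40 and 1.87 CP10K in Apoe-/- and at 6.51, 7.55 and 5.85 CP10K in the labelled knockouts, without overlap (log2 difference 1.97, SE 0.22, limma adjusted p = 6.75e-10), although reads of its near-identical copy C4a cannot be told apart with certainty. C2 (0.0823 and 0.296 against 1.58, 1.23 and 1.11 CP10K) and Cfb (0.108 and 0.116 against 0.829, 1.10 and 0.614 CP10K), the protease subunits of the classical and alternative convertases, rose by log2 differences of 2.38 and 2.13. Saa3, a serum amyloid A made outside the liver, rose from 0.0223 and 0 CP10K to 0.594, 1.69 and 0.818 CP10K, but it was found in 9 labelled-knockout cells, 1 of which gave 43.2% of its level. Lcn2 (lipocalin 2) fell by 1.18 on the log2 scale, and this turned to a rise of 2.73 with at least 3 of the 4 marker genes and of 1.82 without cells carrying other types' markers. Its Apoe-/- level came from 6 cells, 1 of which gave 45.5%, and the share of cells with an Lcn2 UMI ran the other way, 6 of 76 cells (7.89%) in Apoe-/- against 43 of 218 (19.7%) in the labelled knockouts (5.41% and 9.71% after thinning). With limma-voom 2 members of the list rose and 1 fell.

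Type I interferon-response genes rose in 10 of 31 measured members, none fell, and 30 of the 31 had a positive difference (median 1.02). With single libraries left out 7 to 12 members rose, the median being 0.65 without Apoe-/- replicate 2 and 1.45 without Apoe-/- replicate 1, and 5 rose with limma-voom as with at least 3 of the 4 marker genes. Ifi27l2a, a small interferon-induced membrane protein, was at 2.45 and 3.93 CP10K in Apoe-/- and at 13.7, 14.7 and 12.5 CP10K in the labelled knockouts, without overlap (log2 difference 2.09, SE 0.19, limma adjusted p = 5.57e-13). Zbp1, a sensor of Z-form nucleic acid, was at 0.336 and 0 CP10K against 1.56, 1.30 and 0.889 CP10K (log2 difference 2.66). Ifit1, which binds foreign RNA, was at 0.284 and 0 CP10K against 0.736, 0.866 and 0.554 CP10K (log2 difference 2.04). In other Dcn-high cells these 3 genes were also higher in the labelled knockouts, with log2 differences of 2.49 for Ifi27l2a, 1.74 for Zbp1 and 1.86 for Ifit1, all past an adjusted p of 0.05. Interferon gamma targets and GTPases rose in 5 of 14 measured members and none fell. Gbp3 (log2 difference 1.96), Irgm1 (1.84), Iigp1 (1.77) and Ifi47 (1.74), GTPases of cell-autonomous defence, led them, at levels of at most 1.82 CP10K in any library. Of this second list 3 members passed without Apoe-/- replicate 1, 1 without either of Oasl1-/-Apoe-/- replicates 1 and 2 and none without replicate 3, nor did any with limma-voom, with 38 cells drawn per library or with at least 3 of the 4 marker genes.

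Class I antigen presentation rose in 9 of 19 measured members and none fell. H2-K1 and H2-D1, the classical class I heavy chains, were at 2.50 and 3.76 and at 6.68 and 7.01 CP10K in Apoe-/- and at 13.4, 13.5 and 10.5 and at 30.8, 25.8 and 20.6 CP10K in the labelled knockouts. The libraries did not overlap for either (log2 differences 1.98, SE 0.19, and 1.88, SE 0.16, limma adjusted p = 7.17e-12 and 4.94e-14). B2m, their common light chain, named here after its values had been seen, was at 20.9 and 20.6 CP10K against 68.4, 67.1 and 56.0 CP10K (log2 difference 1.61, SE 0.12), and was found in 74 of 76 and 217 of 218 cells. H2-Q6 was at 0 in the adventitial fibroblasts of both Apoe-/- libraries and at 0.960, 0.761 and 0.645 CP10K in the labelled knockouts, at least 7.04-fold higher against a floor of 3 UMIs over the group, and H2-Q7 at 0 and 0.0916 against 0.881, 1.05 and 0.750 CP10K. The H2-Q and H2-T genes are near-identical copies, so how their reads were split among them is uncertain. With any 1 labelled knockout left out, 8 or 9 members of the list rose. With at least 3 of the 4 marker genes 6 did, and after thinning to 1000 UMIs none passed.

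Promoters were searched for a motif, and those of some genes of these lists are printed as a description. From RefSeq promoter sequences (GRCm38.p6, 250 bases before to 50 after the gene start), the motif GAAANNGAAA, the core of the interferon-stimulated response element, or its reverse complement TTTCNNTTTC, was found in 3.44% of 32851 promoters and in 4.16% of the 6014 tested genes with a promoter. It was found in 14 of the 23 tested type I interferon genes with a promoter and in 4 of the 6 that rose. The class I counts were 5 of 17 tested and 3 of the 9 that rose. Those of interferon gamma and GTPase genes were 7 of 13 and 3 of 4, and those of chemokines and cytokines 4 of 14 and 3 of 9. The shares of those that rose lay near the tested lists' shares for type I (66.7% against 60.9%), class I (33.3% against 29.4%) and chemokine genes (33.3% against 28.6%). Of all genes higher in the labelled knockouts with a promoter 23 of 133 (17.3%) held it, and of the lower ones 6 of 55 (10.9%). Matches may overlap, and a match is a description of letters, not a tested site. The windows from position -150 to -31 relative to the start, on the gene's strand, are printed for 4 of these genes with the motif in capitals: Ifit1 at chr19:34640739-34640858 (plus strand), Isg15, a ubiquitin-like modifier, at chr4:156200849-156200968 (minus strand), Bst2, the viral tether tetherin, at chr8:71537503-71537622 (minus strand) and B2m at chr2:122147537-122147656 (plus strand).
Ifit1: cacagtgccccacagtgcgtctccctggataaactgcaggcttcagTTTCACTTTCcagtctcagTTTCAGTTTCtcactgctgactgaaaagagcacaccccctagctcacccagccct
Isg15: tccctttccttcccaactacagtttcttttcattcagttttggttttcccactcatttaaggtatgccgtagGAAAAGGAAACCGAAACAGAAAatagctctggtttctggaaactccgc
Bst2: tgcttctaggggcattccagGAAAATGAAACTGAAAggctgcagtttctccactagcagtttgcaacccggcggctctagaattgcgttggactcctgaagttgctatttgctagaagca
B2m: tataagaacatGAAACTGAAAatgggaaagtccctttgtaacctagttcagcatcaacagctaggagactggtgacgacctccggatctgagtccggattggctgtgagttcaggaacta

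Beside these sequences, Isg15 was at 0.756 and 0.456 CP10K in Apoe-/- and at 2.49, 3.74 and 2.18 CP10K in the labelled knockouts (log2 difference 2.04, SE 0.29, limma adjusted p = 8.62e-07), and Bst2 at 1.78 and 2.52 against 6.91, 6.38 and 4.58 CP10K (log2 difference 1.43, SE 0.22). Neither overlapped between the groups, and both were chosen for printing after their values had been seen. Each printed window holds the motif. The promoters of H2-K1, H2-D1, H2-Q6, H2-Q7, H2-Q4, Psmb8, Xaf1 and Lgals3bp, which also rose, held no match.

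Class II antigen presentation had the largest list median, 3.40, with 4 of 6 measured members higher and none lower, and it moved with macrophage transcripts. Cd74, the class II invariant chain, was at 0.144 and 0.0542 CP10K in Apoe-/- and at 2.61, 10.5 and 5.90 CP10K in the labelled knockouts, and H2-Aa, H2-Eb1 and H2-Ab1 rose by log2 differences of 3.58, 3.56 and 3.24. Of the 1997 class II UMIs in the 218 labelled-knockout cells, 91.7% lay in the 35 cells with UMIs of 2 or more macrophage genes and 90.7% in 5 cells. The complement genes of macrophages ran alike, C1qc (0 and 0 against 0.199, 0.849 and 0.558 CP10K), C1qb and C1qa having log2 differences of 2.51, 2.11 and 2.05. Smooth muscle-like cells held a Cd74 UMI in 8.80% of Apoe-/- and 24.3% of labelled-knockout cells (3.47% and 8.28% after thinning to 1000 UMIs, median depths 4820 and 5155 UMIs). Among adventitial fibroblasts 2.63% and 22.9% held one (1.35% and 11.2% after thinning, median depths 3543 and 3697 UMIs). Without the cells with 2 or more macrophage genes, an alternative added after the data had been seen, Cd74 was at 0 and 0.0572 against 0.415, 0.980 and 0.830 CP10K (log2 difference 2.68, limma adjusted p = 0.000104) and H2-Aa kept an adjusted p of 0.0326, while H2-Ab1 and H2-Eb1 had adjusted p of 0.151 and 0.378. Ccl7 in these cells was at 0.920 and 3.07 against 14.4, 22.1 and 16.1 CP10K, and 11 chemokines and cytokines passed. With limma-voom no class II gene passed.

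Genes of the Pi16 and Dpp4 stem-like state fell in 6 of 20 measured members and rose in 1 (median −0.45). Their summed level overlapped between the groups (110 and 128 against 88.1, 115 and 96.8 CP10K). In other Dcn-high cells the mean sum was higher in the labelled knockouts (52.0 against 68.2 CP10K, without overlap). With cells with and without a Pi16 UMI weighted equally, 3 members fell and 1 rose. Efhd1, a calcium-binding mitochondrial protein, was at 1.28 and 1.89 CP10K in Apoe-/- and at 0.200, 0.259 and 0.106 CP10K in the labelled knockouts, without overlap (log2 difference −2.56, SE 0.41, limma adjusted p = 8.52e-06). It had a UMI in 25% and 5.50% of adventitial fibroblasts of the groups, but also in 69.1% and 70.2% of smooth muscle-like cells and in 33.5% and 28.3% of other Dcn-high cells. Smooth muscle genes in the adventitial fibroblasts ran from a mean of 40.6 to 19.5 CP10K in the same direction, and their part in the fall of Efhd1 was not tested. Anxa3 (annexin A3) was at 4.06 and 6.11 against 1.47, 2.60 and 2.14 CP10K (log2 difference −1.26, SE 0.24), and Sema3c, a secreted semaphorin, at 1.58 and 1.48 against 0.677, 0.678 and 0.498 CP10K (−1.20). Dpp4, the peptidase that gives the state its name, was at 0.245 and 0.544 CP10K against 0, 0.0916 and 0 CP10K, found in 11 of 76 and 4 of 218 cells (log2 difference −1.92, limma adjusted p = 0.0399), and this call was lost without any 1 of the libraries except Apoe-/- replicate 1. Ly6a, the stem cell antigen Sca-1, which is interferon-inducible, rose from 21.6 and 18.7 CP10K to 26.5, 35.7 and 28.1 CP10K (log2 difference 0.57). With single libraries left out, 4 members fell without Apoe-/- replicate 1, 1 without Apoe-/- replicate 2 and 3 without any of the labelled knockouts.

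Matrix genes moved both ways. Among proteoglycans and matrix glycoproteins 4 of 33 measured members rose and 2 fell. Cilp, a matrix protein known to bind TGF-beta, was listed at 0 in every cell of both Apoe-/- libraries and was at 1.05, 1.49 and 0.781 CP10K in 27 labelled-knockout adventitial fibroblasts. Fbln1 (fibulin-1) was at 5.40 and 3.99 against 11.4, 12.4 and 9.75 CP10K (log2 difference 1.24, SE 0.18, limma adjusted p = 1.19e-06), Smoc2 at 3.91 and 3.50 against 7.46, 8.62 and 6.76 CP10K (1.01), and Thbs1 (thrombospondin-1) rose by 2.13 from levels that differed between the Apoe-/- libraries (0.059 and 0.997 CP10K). Fbn1 (fibrillin-1), the backbone of microfibrils, fell from 4.12 and 5.03 CP10K to 1.70, 2.42 and 1.95 CP10K (log2 difference −1.15, SE 0.24), and its partner Mfap5 from 21 and 29.5 CP10K to 12.5, 17.6 and 14.3 CP10K (−0.76). Of 16 collagens, Col3a1 (24.1 and 20.8 against 33.3, 35.1 and 31.5 CP10K) and Col1a1 (12.9 and 13.4 against 18.1, 18.7 and 18.3 CP10K) rose by 0.57 and 0.48 on the log2 scale, the latter at an adjusted p of 0.0498. Among 24 proteases and inhibitors, Timp1 (log2 difference 0.72), Ctsb (0.65) and Serping1 (0.49) rose, and Pcolce2, an enhancer of procollagen processing, fell from 4.84 and 5.96 CP10K to 1.96, 2.48 and 2.48 CP10K (−1.19), as did the aggrecanase Adamts5 (−0.89). Of 11 fibroblast identity genes the 3 that rose were Fbln1, Col3a1 and Col1a1, and Gsn (gelsolin) fell by 0.35 on the log2 scale. These small changes depended on single libraries, since no collagen rose without Oasl1-/-Apoe-/- replicate 2 and 1 did without any of the others, and no protease or inhibitor rose without Apoe-/- replicate 2 or Oasl1-/-Apoe-/- replicate 2.

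Heat shock proteins and chaperones rose in 8 of 17 measured members, none fell, and 16 of the 17 had a positive difference (median 0.69). Hspa5, the chaperone BiP of the endoplasmic reticulum, was at 7.66 and 7.17 CP10K in Apoe-/- and at 18.4, 20.5 and 16.1 CP10K in the labelled knockouts, without overlap (log2 difference 1.29, SE 0.16, limma adjusted p = 1.46e-08). Dnaja1 (2.03 and 2.79 against 6.14, 5.91 and 6.62 CP10K) and Dnajb1 (3.0 and 2.35 against 5.80, 9.44 and 6.03 CP10K), co-chaperones of Hsp70, both rose by 1.35, and Hsph1 by 1.62. Without Oasl1-/-Apoe-/- replicate 1, 2 or 3 the number of members that rose was 5, 4 and 5. Antioxidant and metallothionein genes rose in 4 of 16 members and fell in 1. Gpx3 led them, with 10.3 and 7.83 CP10K in Apoe-/- and 35.6, 28.7 and 33.1 CP10K in the labelled knockouts (log2 difference 1.84, SE 0.15, limma adjusted p = 8.86e-15). Mt1 (21.5 and 19.4 against 32.7, 36.1 and 39.2 CP10K) and Mt2, the zinc-binding metallothioneins, rose by 0.81 and 0.86, Hmox1 (haem oxygenase 1) by 1.36, and Gstm1, a glutathione transferase, fell by 0.61 on the log2 scale. Of 23 immediate early genes Myc (0.283 and 0.599 against 1.35, 1.5 and 1.43 CP10K) rose by 1.56, Nfkbia by 0.59 with overlapping groups, and Klf2 fell by 0.56 on the log2 scale.

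**Figure D4:**
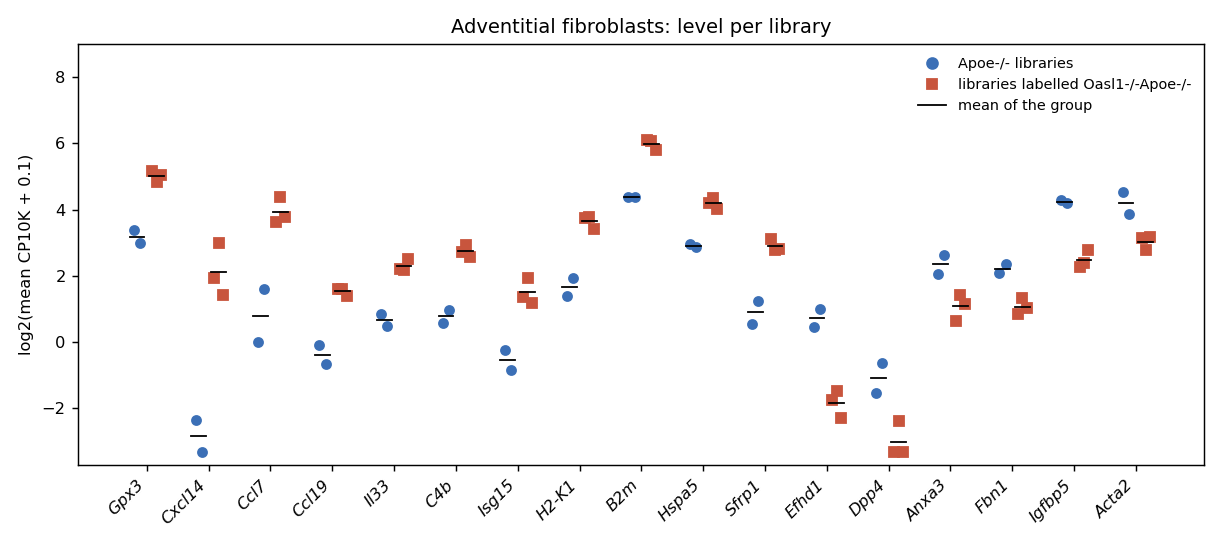
Level per library, as log2(mean CP10K + 0.1), of 17 genes in adventitial fibroblasts of the 2 Apoe-/- libraries (blue circles) and the 3 libraries labelled Oasl1-/-Apoe-/- (red squares), with group means as bars. Gpx3 to Sfrp1 lie higher in the labelled knockouts and Efhd1 to Acta2 lower, and for none of these 17 genes do the groups overlap.

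Growth factor and antagonist genes split evenly, 4 of 36 higher and 4 lower, and 1 was lower without Apoe-/- replicate 2 or Oasl1-/-Apoe-/- replicates 1 or 2 and 2 without replicate 3. Sfrp1, a secreted Wnt antagonist, was at 1.35 and 2.29 CP10K in Apoe-/- and at 8.50, 6.85 and 6.90 CP10K in the labelled knockouts (log2 difference 2.0, SE 0.22, limma adjusted p = 3.97e-10). Its relative Sfrp2 fell by 0.87 on the log2 scale with overlapping groups, and the difference was 0.40 with at least 3 of the 4 marker genes. The insulin-like growth factor binding proteins went both ways. Igfbp5 dropped from 19.5 and 18.1 CP10K to 4.68, 5.17 and 6.84 CP10K (log2 difference −1.76, SE 0.17, limma adjusted p = 3.31e-11) and Igfbp6 from 6.10 and 6.14 CP10K to 3.20, 4.26 and 3.92 CP10K (−0.69), while Igfbp4 rose from 24.5 and 22.4 CP10K to 40.8, 41.6 and 35.4 CP10K (0.74) and Igfbp3 by 1.66 with overlapping groups. Gas6, a ligand of the TAM receptors that clear apoptotic cells, was at 9.93 and 8.55 against 16.4, 18.2 and 16.3 CP10K (0.87), and Ctgf at 5.06 and 7.20 against 3.31, 3.35 and 3.91 CP10K (−0.77). In the lipid list of 14 measured genes Apod (1.21 and 0.415 against 2.07, 3.92 and 4.85 CP10K) rose by 2.09 and Cebpb by 0.57, and Cebpd fell by 0.72 on the log2 scale. Of 12 clock genes Dbp rose by 1.63, and none of 6 measured cell cycle genes passed the limma threshold.

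Myofibroblast genes fell in 4 of 12 measured members and none rose (median −0.82). Acta2, smooth muscle actin, was at 23.2 and 14.5 CP10K in Apoe-/- and at 8.76, 6.80 and 8.93 CP10K in the labelled knockouts, without overlap (log2 difference −1.17, SE 0.17, limma adjusted p = 1.75e-06), and Tagln (transgelin) at 10.2 and 10.4 against 4.76, 4.66 and 5.99 CP10K (−1.0). Myl9 and Tpm2 fell by 0.86 and 0.81 on the log2 scale. The smooth muscle genes of the whole libraries were lower in the labelled knockouts as well (409 and 393 against 258, 253 and 251 CP10K), and their part in this fall was not tested. With at least 3 of the 4 marker genes none of the 4 fell, Tpm2 being at 0.42, and 1 other member of the list rose. Without Apoe-/- replicate 1 or Oasl1-/-Apoe-/- replicates 2 or 3, 2 members fell, and the median was −0.42 without Apoe-/- replicate 1. Transcripts of the mitochondrial genome fell in 7 of 12 measured members and none was positive (median −0.56), led by mt-Atp8 (log2 difference −1.72), mt-Nd2 (−0.71), mt-Nd4 (−0.58) and mt-Cytb (−0.57). This fall ran with the lower mitochondrial share per cell, and no member passed without Apoe-/- replicate 1, 4 without Apoe-/- replicate 2 and 3 and 2 without Oasl1-/-Apoe-/- replicates 1 and 2. Of 79 cytosolic ribosomal protein genes 1 rose and 6 fell, with a median of −0.11.

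Among the largest changes of either direction were genes in none of the groups above. Chl1, a neural cell adhesion molecule, was listed at 0 in every cell of both Apoe-/- libraries and was at 1.12, 0.755 and 0.948 CP10K in 43 labelled-knockout cells, and the unnamed gene CR974586.5 rose by 3.35 on the log2 scale. Ptgs1 (cyclooxygenase 1) was at 1.11 and 1.09 CP10K in Apoe-/- and at 0.120, 0.197 and 0.156 CP10K in the labelled knockouts (log2 difference −2.23, SE 0.43, limma adjusted p = 2.95e-04), without overlap. Edn1 (endothelin 1), a vasoconstrictor peptide, was at 0.705 and 0.569 against 0.0956, 0.137 and 0.0304 CP10K (−2.01). It rested on 14 UMIs in 9 Apoe-/- cells and 10 UMIs in 8 labelled-knockout cells, and was also lower in other Dcn-high cells (−1.40). Tmeff2 (−1.93), Smpd3, a neutral sphingomyelinase (−1.85), Clpx, a subunit of a mitochondrial protease (−1.85), and 1110012L19Rik (−1.99) were also lower. Of these, Smpd3 rested on 15 UMIs in Apoe-/- and 6 in the labelled knockouts, and Clpx on 10 and 12. Gm43301, at 0.555 and 0.823 CP10K in Apoe-/-, was listed at 0 in every cell of the 3 labelled knockouts. Hbb-bs, a beta-globin shared with red cells and with a near-identical copy, fell by 1.92 on the log2 scale, and the erythroid transcripts of the whole libraries moved with it, from 20.3 and 31.3 CP10K to 12.5, 13.6 and 1.19 CP10K.

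The response was set beside that of the other Dcn-high cells, which come from the same libraries. There, 528 of 6940 tested genes (7.61%) passed the same test. Of the 258 genes called in adventitial fibroblasts 240 were tested in the other cells, 117 passed there too, 110 of them in the same direction and 7 in the opposite one, among these Sfrp1, Igfbp4 and Fbn1. The difference between the responses was tested by fitting the within-library difference of both classes, and 2 of 6940 genes (0.0288%) passed, with 661 at an unadjusted p under 0.05. Cxcl14 changed by 4.95 in adventitial fibroblasts and by 0.36 in other Dcn-high cells (difference 4.59, SE 0.41, limma adjusted p = 0.0179). Sfrp1 rose by 2.0 in adventitial fibroblasts and changed by −1.09 in the other cells, where it went from 2.18 and 2.78 CP10K to 1.37, 0.889 and 1.09 CP10K (difference 3.10, SE 0.29, limma adjusted p = 0.0179). Next in rank by p-value were Saa3 (3.24 against 0.20) and Ccl19 (1.91 against −0.02), whose differences did not pass (limma adjusted p = 0.191 for each). Il33 (1.62 against −0.23) ranked lower and did not pass either. With an offset of 0.05 CP10K neither Cxcl14 nor Sfrp1 passed, and with 0.5 both were among 41 that did.

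**Figure D5:**
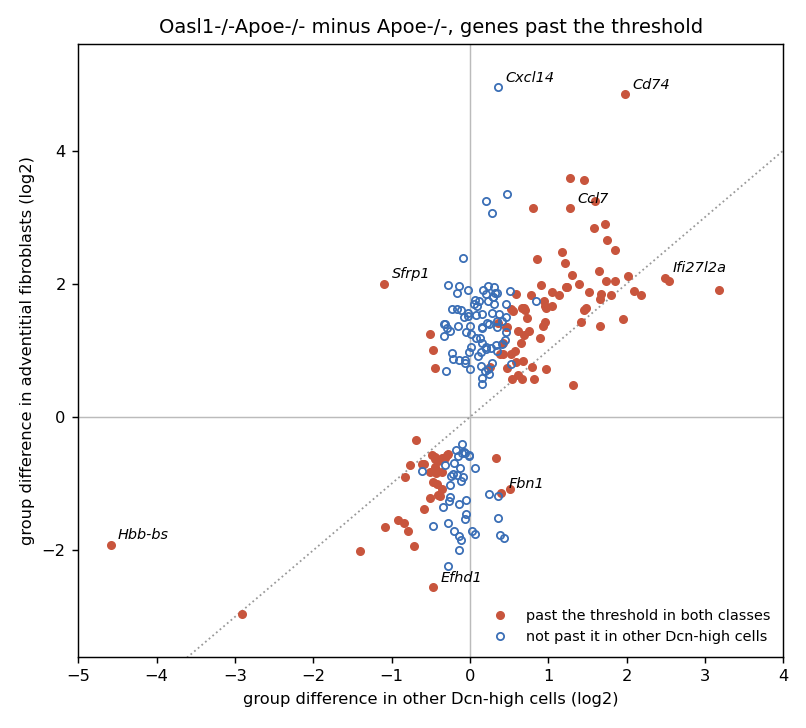
Group difference (log2, labelled knockouts minus Apoe-/-) in other Dcn-high cells on the x axis and in adventitial fibroblasts on the y axis, for the 240 genes past the threshold in adventitial fibroblasts and tested in both classes, with the dotted line marking equal differences. The 117 filled genes also passed in other Dcn-high cells, and Cxcl14 and Sfrp1, the 2 whose difference between classes passed, stand apart at 0.36 and −1.09 on the x axis.

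Adventitial fibroblasts with and without a Pi16 UMI (215 and 79 cells, median 3521 and 3918 UMIs) were described with no test, since Pi16 belongs to the rule and its detection depends on depth. Those without Pi16 numbered 11 and 7 in the Apoe-/- libraries and 16, 17 and 28 in the labelled knockouts, and the means weigh each library equally. Only the 726 genes of the same sign in all 5 libraries were ranked. Cells with Pi16 were higher in Lurap1l, Lrrn4cl, Adgrd1, Pcsk6, Scara5, Sfrp1, Scn7a, Emilin2, Cdkn1c and Akap12, for example Sfrp1 at 6.09 against 2.39 CP10K and the cell-cycle inhibitor Cdkn1c at 2.17 against 0.422 CP10K. Cells without Pi16 were higher in Spp1 (osteopontin, 16.9 against 1.01 CP10K), Clu (clusterin, 16.6 against 2.77 CP10K), Lgals3 (galectin 3, 4.21 against 0.784 CP10K) and Sncg (3.06 against 0.506 CP10K), followed by Rarres1, Glipr1, Lyz2, Chmp1b, Ampd2 and Csnk2a2. Lyz2, a lysozyme gene of macrophages, was at 2.33 against 0.412 CP10K in these cells.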

How the data were processed

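Aortic single cells were profiled by 10x 3′ (v2) RNA sequencing in 5 libraries. The authors mapped reads to mm10 with Cell Ranger 3.1.0, filtered cells by gene number and mitochondrial share in Seurat 4.0.3, and took out doublets with DoubletFinder; none were called again. Values were deposited as the natural log of UMIs per 10000 UMIs of the cell, plus 1 (16498 genes, 18260 cells). Undoing the log and dividing by each cell's smallest value gave whole UMIs for 100% of values (tolerance 0.01). A gene at 0 in a whole library is only stated as listed at 0.

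Cells were chosen by the rule, and their CP10K averaged per library. limma 3.58.1 (R 4.3.3; trended empirical Bayes) compared log2(mean + 0.1) for genes with a mean of at least 0.1 CP10K, Benjamini-Hochberg adjusted p under 0.05, without the 10 rule genes. It was tested on simulated data. The study's own test takes cells as replicates, and library means replaced it here. Shares were compared by exact permutation. Of the symbols, 16296 (98.8%) matched 1 GENCODE M21 gene. Named genes were Oasl1, Apoe, the rule genes and Gpx3, the 10 largest non-overlapping changes per direction, up to 4 called members per list and direction (and families counted), the 15 highest genes against other Dcn-high cells and the 10 per direction by Pi16. The members and lists were chosen with earlier results of these data known. Replicate numbers did not pair libraries: deviations of same-numbered libraries correlated at 0.00915 and 0.00223. Alternatives varied the offset, filter, cells, depth, tool and libraries.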

Additional observations from a re-analysis of the deposited data

Results flagged for a closer look

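Cxcl14 and Sfrp1 differed in their response between adventitial fibroblasts and other Dcn-high cells by a test of the difference itself (limma with Benjamini-Hochberg adjustment, 5 libraries). The group difference of Cxcl14 was 4.59 larger on the log2 scale in adventitial fibroblasts (SE 0.41, adjusted p = 0.0179), with each labelled knockout above each Apoe-/- library in these cells. That of Sfrp1 was 3.10 larger (SE 0.29, adjusted p = 0.0179), rising in adventitial fibroblasts and falling in the other cells, without overlap between groups in either. Cxcl14 rested on 28 labelled-knockout cells, 1 of which gave 15.7% of its level, and Sfrp1 on 115, with 6.8% from the top cell. No group held 4 or more libraries, so no library was tested as an outlier.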

How the results depend on the processing

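The 258 genes became 127 with at least 3 of the 4 marker genes (115 shared), 128 with 38 cells drawn per library (124 shared), 114 with limma-voom (98 shared, 52 higher and 62 lower) and 0 in cells thinned to 1000 UMIs, where 951 genes had an unadjusted p under 0.05 and list medians were 1.62 (chemokines), 1.66 (class I), 1.23 (type I interferon) and 1.24 (complement). Leaving out 1 library gave 127 to 241 genes, the fewest without each labelled knockout (149, 129 and 127 without replicates 1, 2 and 3). Without cells with 2 or more macrophage genes, chosen after seeing the data, 233 genes passed (209 shared). The 2 genes whose response differed between cell classes became 0 with an offset of 0.05 CP10K, 41 with 0.5, and 0 to 1 without single libraries (none without either Apoe-/- library or without labelled knockout replicate 3). The share of all cells differed by 1.75 percentage points over cells without Ptprc, 1.82 without smooth muscle-like cells and 0.750 after thinning, and by 1.21 to 1.52 with single libraries out. The share of Dcn-high cells differed by 1.16 points after thinning and by 2.83 to 4.47 with single libraries out. Lcn2 turned to 2.73 with at least 3 of the 4 genes, 1.82 without cells carrying other types' markers and 0.0954 on the mean of deposited values. With at least 3 of the 4 genes Sfrp2 turned to 0.40 and Tpm2 to 0.42. Among the other 84 of 87 named genes no change of direction involved a fit past the threshold. Changes of sign in genes past it neither in the main fit nor in the alternative were not counted. Of 1634 values 1175 kept their side of the threshold and 454 lost it. Causes were not tested.

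With the replicate number as a block 195 genes passed in the group comparison and 7 in the difference between classes. The numbers did not pair the libraries (correlations of 0.00915 and 0.00223).

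With 38 cells in each Apoe-/- library, low genes rested on few UMIs, and 2 against 3 libraries could not reach an exact p under 0.1.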
